A study of Rattus norvegicus with 12 samples.

Results

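Primary cultures of rat ventricular cardiomyocytes were exposed for 3 h to corticosterone (COR) and compared with ethanol vehicle within each of 2 experiments. The comparison rests on 4 of the 12 arrays of the series, chosen by their labels: 1 COR and 1 vehicle array of the first experiment and 1 COR and 1 vehicle array of the second. The cells came from the ventricles of 1-day-old Wistar rats, were separated from fibroblasts by how fast they attach, and spent 24 h in OPTI-MEM, a reduced-serum medium, before treatment. COR cultures received COR for 3 h and vehicle cultures received ethanol for 3 h. Cultures given cortivazol (CVZ, a synthetic glucocorticoid) or aldosterone (ALD, a mineralocorticoid), with 1 array in each experiment, entered the fit and 2 comparisons with COR, while the arrays with RU486 (an antagonist of the glucocorticoid receptor) were left out. No label gives a dose for COR, CVZ or ALD. The labels do not say how many rats went into a culture or whether the 2 experiments used separate cell preparations, so the p-values cover no more than the spread among these arrays.

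COR is the main circulating glucocorticoid of the rat. It enters cells and binds the glucocorticoid receptor, a ligand-activated transcription factor held in the cytoplasm by heat shock protein chaperones, which then moves to the nucleus, binds DNA as a dimer at paired copies of a short motif and raises or lowers the transcription of nearby genes. COR also binds the mineralocorticoid receptor, which cardiomyocytes carry too. In the heart, glucocorticoids are known for acting on fuel use, on the maturation of the contractile cell and on inflammatory signalling.

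Signals were scaled so that the median of every array is 1, and a signal of 10.0 is therefore 10-fold the median probe set of that array. Differences are on the scale log2(signal + 0.0682), COR minus vehicle. They are given for each experiment and as the value fitted over both with its standard error, and a probe set counted as called where limma gave it an adjusted p (Benjamini-Hochberg) below 0.05. The array medians before scaling were worked back from the step between scaled values, taking the original signals as recorded to 1 decimal place. They came to 25.5 and 28.7 in COR cultures and 22.7 and 23.8 in vehicle cultures. Across probe sets the log2 signals of the 2 COR arrays correlated at r = 0.946 and those of the 2 vehicle arrays at 0.950, while COR and vehicle arrays of the same experiment correlated at 0.967 and 0.963. Arrays of 1 experiment were thus more alike than arrays of 1 treatment.

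The cells carried the defining transcripts of cardiomyocytes. The summed signal of 12 cardiomyocyte markers was 2477 and 2537 in COR cultures, against 2667 and 2523 in vehicle cultures. The summed signal of 10 fibroblast markers was 420 and 201 in COR cultures, against 452 and 196 in vehicle cultures, so this signal was higher in both cultures of the first experiment than in both of the second. Macrophage markers (5 tested) summed to 11 and 6.53 in COR cultures and to 11.5 and 7.08 in vehicle cultures, endothelial markers (5 tested) to 12.7 and 7.23 in COR cultures and to 9.46 and 7.51 in vehicle cultures, and epicardial markers (3 tested) to 5.99 and 2.78 in COR cultures and to 5.74 and 2.87 in vehicle cultures. Smooth muscle markers (7 tested) summed to 48.2 and 39.9 in COR cultures and to 53.3 and 38.4 in vehicle cultures. Hbb, a globin chain of red blood cells, had 99.0 and 30.9 in COR cultures and 91.0 and 32.2 in vehicle cultures. Of the 45 markers tested in 7 lists, 0 passed the threshold between COR and vehicle in limma, with 4 at an unadjusted p below 0.05, 2 higher and 2 lower. The fibroblast, smooth muscle, macrophage, endothelial, epicardial and Hbb signals moved with the experiment, while the cardiomyocyte sum did not. The part of these signals in the differences between experiments given here was not tested. In such mixed cultures fewer cells of a type and less RNA per cell cannot be told apart.

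COR raised more probe sets than it lowered. Of 18625 probe sets tested, 650 (3.49%) passed the threshold, with 478 (2.57%) higher and 172 (0.923%) lower in COR cultures. All 650 had the same sign in both experiments, as against 57.4% of all probe sets tested, although both experiments entered the fit that called them. The median fitted change was 0.96 over the rises and -0.71 over the falls, and 264 of the 650 had a fitted change of 2-fold or more, 225 of them higher. By gene, with 1 probe set each, 404 of 10118 named genes passed (3.99%): 289 rose (2.86%) and 115 fell (1.14%).

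Agreement in size was a narrower matter. In the first experiment 796 probe sets differed by 2-fold or more and in the second 803; 199 did so in both in the same direction and 22 in opposite directions. By the agreement rule, the same sign, at least 2-fold in each experiment and a gap between experiments of at most 0.5 on the log2 scale, 143 probe sets qualified (0.768%), 116 higher (0.623%) and 27 lower (0.145%). Of the 143 probe sets, 122 were also called in the fit. Counted by gene, with only the probe set of highest mean for each, 72 named genes met the rule as higher and 10 as lower. A gene whose other probe set alone met the rule is not in these counts. Just inside the rule lay Adcy6, an adenylyl cyclase, with differences of 1.01 and 1.31, and just outside it Slc31a2, a copper transporter, with 0.999 and 1.03. At the threshold of the fit, Paqr8 was just inside (adjusted p = 0.0498 in limma) and Apoe just outside (adjusted p = 0.0506).

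**Figure D1:**
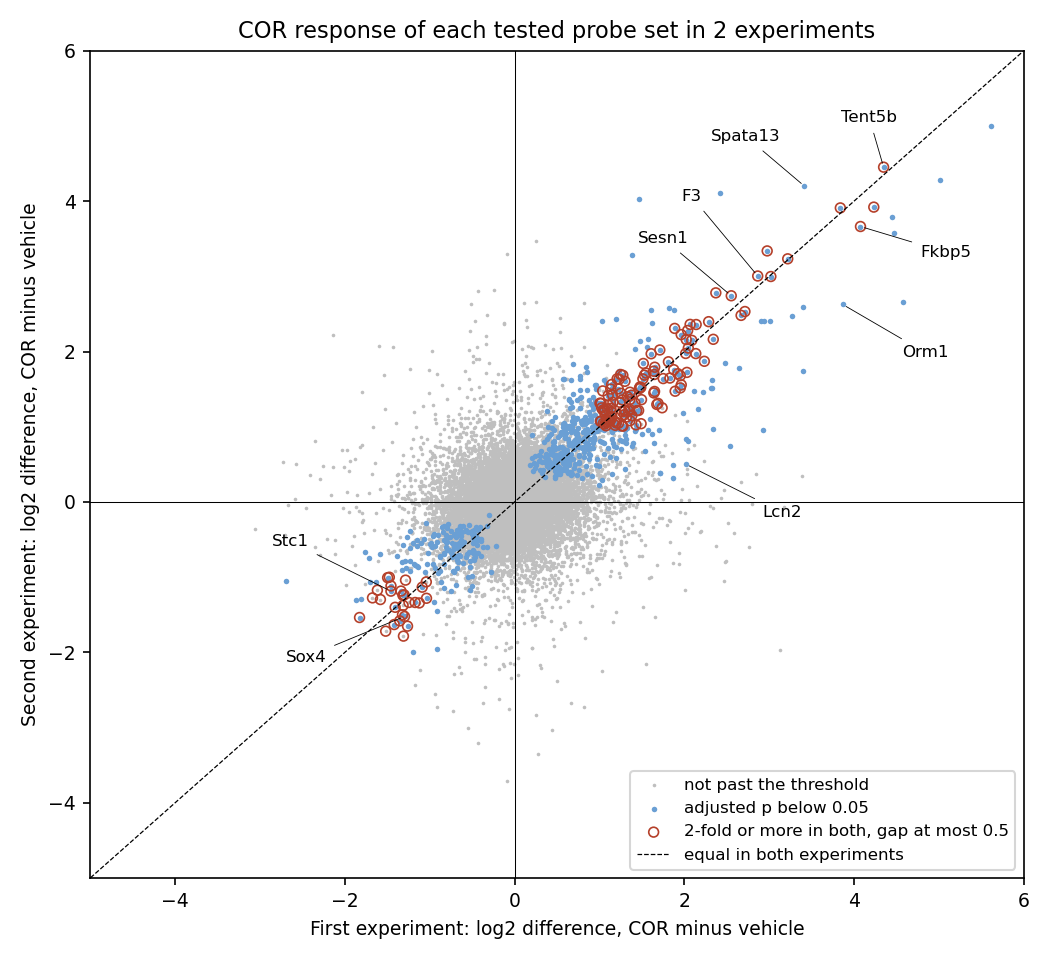
Each point is 1 of the 18625 probe sets tested, placed by its log2 difference COR minus vehicle in the first experiment (x axis) and in the second (y axis). Blue points passed the threshold of the fit (650), red rings mark the 143 that agreed in sign and size, the dashed line is equality, and 9 genes are named. Most rings lie in the upper right, 116 against 27 in the lower left, and Tent5b and Fkbp5 lie near the upper end of the line while Lcn2 lies well below it.

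The count of calls rests on the experiment as a block and on the mean-variance trend of the fit: without the block 48 probe sets passed, and without the trend 122. It was 395 without the COR array of the first experiment and 430 without that of the second. The falls varied more than the rises: 172 became 62 to 139 with 1 array left out, fewest without the vehicle array of the first experiment, 257 and 259 after other scalings and 376 with the 4 COR and vehicle arrays alone.

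The largest rise at the pseudocount used was that of Tent5b, a poly(A) polymerase that extends mRNA tails. It had signals of 8.05 and 9.43 in COR cultures, against 0.330 and 0.366 in vehicle cultures, so that COR stood far above vehicle in each experiment. The fitted change was 4.40 ± 0.17 (SE, n = 2 per group; limma adjusted p = 2.8e-11), with 4.35 in the first experiment and 4.45 in the second, and its other probe set gave 5.31. Its vehicle signals lie below the level of 0.628 that the filter on means required, so the size depends on the pseudocount: the change was 24.6-fold with a pseudocount of 0.00682 and 7.21-fold with a pseudocount of 1, where Fkbp5 was larger at 10.1-fold.

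Fkbp5, a co-chaperone that lowers the affinity of the glucocorticoid receptor for its ligand, had 26.6 and 28.2 in COR cultures, against 1.52 and 2.17 in vehicle cultures. The groups were far apart in both experiments, at 4.08 and 3.66, with a fitted change of 3.87 ± 0.13 (limma adjusted p = 5.2e-12). Spata13, a guanine nucleotide exchange factor, had 12.8 and 11.4 in COR cultures and 1.14 and 0.555 in vehicle cultures. Orm1, a secreted acute-phase glycoprotein, had 2.85 and 2.35 in COR cultures and 0.132 and 0.324 in vehicle cultures, a fitted change of 3.25 ± 0.29 (limma adjusted p = 1.1e-06). In both genes the COR arrays stood above the vehicle arrays without overlap, but the 2 experiments differed in size, 3.42 and 4.20 for Spata13 and 3.86 and 2.63 for Orm1. Both vehicle signals of Orm1 lie below the filter level of 0.628, as do those of Rasgrp1, Gabre, Hpgd and Foxl2 below. Like Tent5b, these genes passed the filter on means through arrays with a ligand, so their p-values are not independent support. With a pseudocount of 1 the fitted change was 2.84 for Spata13 and 1.55 for Orm1. Orm1 then stood below Sult1a1, F3, Ccl20, Sesn1 and Klf15. It also stood below Rhobtb1 (1.98), Egr1 (1.98), Cdc42ep2 (1.90), Dgke (1.77), Kdr (1.74), Per1 (1.72), Crispld2 (1.70), Capn10 (1.66), Etfbkmt (1.64) and Klf9 (1.60).

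The start regions of these 4 genes are shown because the receptor binds DNA and they rose most at the pseudocount used. Those of Sult1a1 and Ccl20, both among the 8 largest rises, were added because they hold the receptor's motif. Each is the RefSeq sequence (GRCr8) from 250 bases before to 50 bases after the annotated start, on the gene's strand. Capitals mark the receptor's 6-base motif, searched as AGAACA or TGTTCT on both strands, and Sult1a1 and Ccl20 were picked after the matches were seen, as the first rises by size that hold one.
Tent5b, chr5:150978988-150979287, plus strand: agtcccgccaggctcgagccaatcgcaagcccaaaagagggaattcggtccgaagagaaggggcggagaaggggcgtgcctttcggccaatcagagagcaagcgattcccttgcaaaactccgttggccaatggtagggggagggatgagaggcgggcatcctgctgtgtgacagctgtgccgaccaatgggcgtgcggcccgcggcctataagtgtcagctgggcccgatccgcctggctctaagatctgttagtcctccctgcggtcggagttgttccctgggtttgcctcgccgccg
Fkbp5, chr20:6543506-6543805, minus strand: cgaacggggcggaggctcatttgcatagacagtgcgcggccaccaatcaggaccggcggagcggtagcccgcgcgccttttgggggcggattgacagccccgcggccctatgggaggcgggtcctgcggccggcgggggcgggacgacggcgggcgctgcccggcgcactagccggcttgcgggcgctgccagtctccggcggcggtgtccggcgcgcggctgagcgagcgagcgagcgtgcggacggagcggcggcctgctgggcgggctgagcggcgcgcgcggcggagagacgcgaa
Spata13, chr15:38954408-38954707, plus strand: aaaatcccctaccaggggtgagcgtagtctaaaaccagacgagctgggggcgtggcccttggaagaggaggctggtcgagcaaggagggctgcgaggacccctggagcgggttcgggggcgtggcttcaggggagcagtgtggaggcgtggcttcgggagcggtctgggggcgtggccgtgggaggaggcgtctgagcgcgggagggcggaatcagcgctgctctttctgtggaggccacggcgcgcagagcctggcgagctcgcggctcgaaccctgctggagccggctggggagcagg
Orm1, chr5:81788259-81788558, plus strand: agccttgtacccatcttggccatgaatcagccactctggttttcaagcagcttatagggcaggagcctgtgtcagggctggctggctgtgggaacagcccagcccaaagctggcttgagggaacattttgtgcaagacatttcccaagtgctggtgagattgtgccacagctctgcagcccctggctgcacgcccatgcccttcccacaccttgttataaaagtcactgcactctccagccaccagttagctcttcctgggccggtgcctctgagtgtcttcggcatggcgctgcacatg
Sult1a1, chr1:190706063-190706362, minus strand: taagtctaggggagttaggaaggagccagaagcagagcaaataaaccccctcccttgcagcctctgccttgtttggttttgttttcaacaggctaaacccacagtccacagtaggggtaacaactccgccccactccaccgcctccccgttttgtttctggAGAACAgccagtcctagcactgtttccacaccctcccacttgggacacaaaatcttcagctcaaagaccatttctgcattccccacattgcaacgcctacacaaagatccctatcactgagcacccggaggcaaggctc
Ccl20, chr9:91836909-91837208, plus strand: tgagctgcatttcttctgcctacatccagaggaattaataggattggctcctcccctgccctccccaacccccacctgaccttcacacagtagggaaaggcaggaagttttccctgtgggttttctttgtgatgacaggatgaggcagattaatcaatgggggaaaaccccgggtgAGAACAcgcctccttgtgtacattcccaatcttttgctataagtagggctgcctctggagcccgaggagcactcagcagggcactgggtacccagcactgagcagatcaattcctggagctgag

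The rises that were the 4 largest at the pseudocount used, an order that depends on low vehicle signals, held no copy of the motif in this window, which says only that these letters are not there. In the other two it lay 89 bases before the start of Sult1a1 and 74 bases before that of Ccl20. The motif stood in 20.7% of all 33469 promoter windows and in 12% of the 8491 windows of named genes tested here. It was found in 19 of 228 windows of called rises (8.33%) and in 10 of 93 windows of called falls (10.8%), both below the share over genes tested. The paired form, AGAACA followed 3 bases later by TGTTCT, was in 0 of these called windows. It was also in 0 of the 8491 windows of named genes tested, and in 5 of the 33469.

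Sult1a1, a sulfotransferase for phenols, had 5.56 and 4.91 in COR cultures, against 0.648 and 0.424 in vehicle cultures, and its fitted change was 3.16 ± 0.21, or 2.02 with a pseudocount of 1. F3, tissue factor, the cell surface starter of coagulation, had 11.7 and 12.1 in COR cultures and 1.55 and 1.45 in vehicle cultures. Its 2 experiments were close, at 2.86 and 3.00, and the fitted change was 2.93 ± 0.14 (limma adjusted p = 2.3e-10). Ccl20, a chemokine, had 18.5 and 6.39 in COR cultures and 1.85 and 1.09 in vehicle cultures. For this gene the COR arrays themselves differed more than 2-fold between experiments, while the differences from vehicle were 3.27 and 2.48.

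The other rises among the 24 largest had fitted changes of 1.99 to 2.99. Those of small GTPase signalling were Rasgrp1, a Ras exchange factor (2.58), Cdc42ep2, an effector of Cdc42 (2.34), and Rhobtb1, an atypical small GTPase (2.25). Rhobtb1 had 15.8 and 16.2 in COR cultures and 3.06 and 3.57 in vehicle cultures, a gap between groups much wider than that within them. With a pseudocount of 1 the change of Rasgrp1 was 1.47. Dgke, a diacylglycerol kinase (2.22), Capn10, a calpain protease (2.05), Etfbkmt, a lysine methyltransferase of the electron transfer flavoprotein (2.05, with 0.83 and no call in its other probe set), and the phosphatase Dusp15 (2.17, or 1.09 with a pseudocount of 1) rose too. Kdr, the main receptor for vascular endothelial growth factor, had 15.3 and 13.0 in COR cultures and 4.93 and 2.45 in vehicle cultures (2.00 ± 0.18). Gabre, a subunit of the GABA receptor channel, and Foxl2, a forkhead factor, had vehicle signals below 0.45 and changes of 2.33 and 1.99, or 0.89 and 0.999 with a pseudocount of 1, and their calls were lost without 1 array, Gabre (1.67) and Foxl2 (1.76) without the vehicle array of the second experiment and Foxl2 (1.73) also without the COR array of the first.

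**Figure D2:**
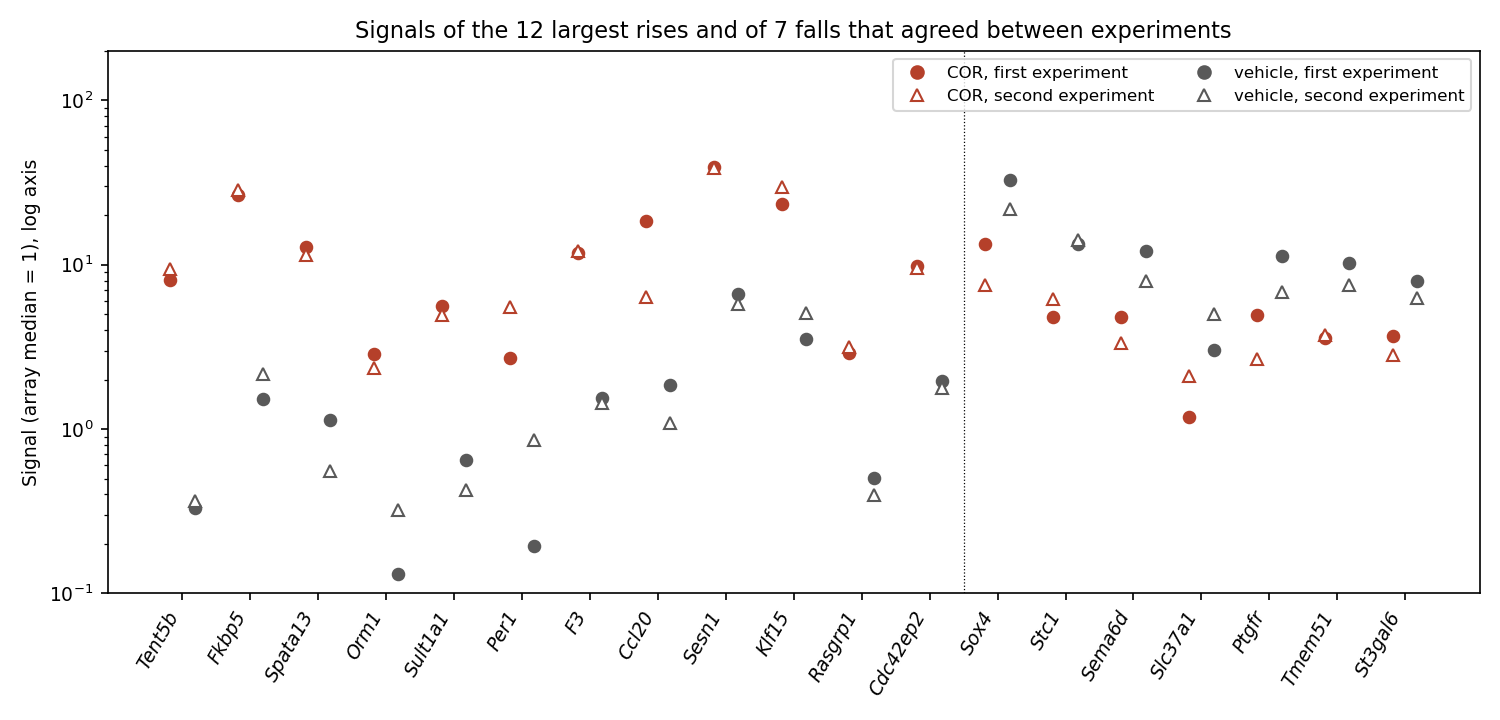
Signal (log axis, array median 1) of the 12 largest rises and of 7 falls that agreed in sign and size, by group and experiment: COR in red left of vehicle in grey, filled circles for the first experiment and open triangles for the second. The falls are Sox4, Stc1, Sema6d, Slc37a1, Ptgfr, Tmem51 and St3gal6. Tmem51 fell by -1.25, and its other probe set gave -0.98 and was not called. For each of the 19 genes both COR arrays lie on the same side of both vehicle arrays. Ccl20 shows the widest spread within the COR group among the rises, 18.5 against 6.39.

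Falls were fewer and smaller. Sox4, a transcription factor of the SOX family active in developing heart, had 13.3 and 7.50 in COR cultures, against 32.8 and 21.7 in vehicle cultures. Both COR arrays were below both vehicle arrays, with differences of -1.30 and -1.52 and a fitted change of -1.41 ± 0.12 (limma adjusted p = 6.1e-07), and its 4 probe sets gave -1.41 to -1.58. Stc1, the secreted glycoprotein stanniocalcin, had 4.79 and 6.15 in COR cultures and 13.3 and 14.1 in vehicle cultures (-1.32 ± 0.14), and 1 of its other 2 probe sets was not called (-1.07). Sema6d, a transmembrane semaphorin, had 4.84 and 3.33 in COR cultures and 12.1 and 7.96 in vehicle cultures (-1.28 ± 0.16). St3gal6, a sialyltransferase, fell by 1.11 with nearly equal experiments, -1.09 and -1.13.

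Several of the largest falls lost their call when 1 array was left out. A fit with fewer arrays is also less precise, so a call can be lost while the value hardly moves. Rpl39, at -1.43 with all arrays, is such a case without either vehicle array. Rcor2, a corepressor subunit, had 0.231 and 1.03 in COR cultures and 1.87 and 2.20 in vehicle cultures, with differences of -2.70 and -1.05 that the low first COR signal sets apart (-1.87, or -0.94 with a pseudocount of 1). Its call was lost without the first COR array (-1.34) or the first vehicle array (-1.31). Rpl39, a protein of the large ribosomal subunit, had 2.17 and 1.30 in COR cultures and 4.14 and 5.25 in vehicle cultures, and its call was lost without the second COR array (-0.76), the first vehicle array (-1.46) or the second (-1.41). Boc, a hedgehog co-receptor (-1.38), lost its call without the first COR array (-1.09) or the first vehicle array (-1.25), and Tox3, an HMG-box factor (-1.23, other probe set -0.71 and not called), without the same 2 arrays (-1.08 and -0.74). Ephb3, an ephrin receptor (-1.14), lost it without the second COR array (-0.85), the first vehicle array (-1.1) or the second (-1.17). Slc37a1, a sugar phosphate carrier (-1.27), lost it without the second vehicle array (-1.20), and Skida1 (-1.12) and LOC100911508 (-1.08) without the first (-0.93 and -0.88).

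In the machinery of the receptor itself Fkbp5 stood alone. Of 10 receptors, chaperones and cofactors tested, 1 rose (10%), 0 fell and 9 did not pass, with a list median of -0.01, against 0.01 over all named genes. Over all named genes 2.86% rose and 1.14% fell, the shares to set beside the counts of this list and of those below. In a short list 1 or 2 calls describe those genes and not the list. Nr3c1, the glucocorticoid receptor, had 8.29 and 7.14 in COR cultures, against 11.6 and 9.54 in vehicle cultures. Both COR signals were below both vehicle signals, with a fitted change of -0.45 that did not pass (limma adjusted p = 0.070). Nr3c2, the mineralocorticoid receptor, had 2.31 and 2.48 in COR cultures and 3.45 and 1.76 in vehicle cultures, which overlap (-0.04 ± 0.24, limma adjusted p = 0.97). The chaperone Hsp90ab1 (-0.09), the p23 gene Ptges3 (0.02) and the adaptor Stip1 (-0.10) had values near 0.

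Transcription regulators known as steroid-induced had the highest median among the lists. The lists and their members were chosen with earlier results of these data known, so this rank is a description. Of 15 tested, 8 rose (53.3%), 1 fell (6.67%) and 6 did not pass, against 2.86% and 1.14% of all named genes, and the list median was 0.70. Klf15, a zinc finger factor of amino acid and lipid metabolism, had 23.5 and 29.7 in COR cultures, against 3.53 and 5.08 in vehicle cultures, with differences of 2.71 and 2.53 (2.62 ± 0.11, limma adjusted p = 4.2e-11). Klf9, a related factor, had 47.9 and 34.4 in COR cultures and 15.3 and 10.6 in vehicle cultures (1.67 ± 0.10), and its other probe set gave 3.62. For the probe sets shown the 2 experiments were close in both genes. Cebpb (1.74) and Cebpd (1.32, with 0.47 and no call in its other probe set), factors of acute-phase and fat cell genes, the repressor Bcl6 (1.15) and the forkhead factor Foxo3 (1.14) rose as well.

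Tsc22d3, which encodes the anti-inflammatory leucine zipper protein GILZ, had 23.1 and 19.4 in COR cultures, against 16.0 and 14 in vehicle cultures. Its rise of 0.50 ± 0.10 was small, though alike in both experiments (0.53 and 0.47), and its call was lost without the first COR array (0.42) or the second vehicle array (0.46). Ets2, an ETS factor (-0.61), fell, but its call was lost without the first COR array (-0.66), the second COR array (-0.55) or the first vehicle array (-0.48). Klf4 (0.11), Klf6 (0.25), Hes1 (-0.15) and Arid5b (-0.03) did not pass.

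In the clock list 1 of 16 genes rose (6.25%) and 1 fell (6.25%). The rise, that of Per1, is also counted in the list of steroid-induced transcription regulators, as is Nfil3, which did not pass. Per1, a repressor of the circadian clock, had 2.69 and 5.5 in COR cultures and 0.194 and 0.857 in vehicle cultures, so that both groups were lower in the first experiment and the differences were 3.39 and 2.59 (2.99 ± 0.26, limma adjusted p = 7.8e-07, and 1.72 with a pseudocount of 1). Bhlhe41, another repressor of the clock, had a change of -0.65, with its call lost without the first COR array (-0.68), the second COR array (-0.62) or the first vehicle array (-0.55). The other 14, among them Nr1d2 (-0.05), Clock (0.15), Cry1 (0.25) and Tef (0.22), did not pass, and the median was 0.23.

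The insulin, FoxO and mTOR list, which holds both carriers and brakes of this signalling, had more rises than falls. Of 17 tested, 7 rose (41.2%), 0 fell and 10 did not pass, with a median of 0.41. Sesn1, a stress protein that restrains mTORC1, had 39.2 and 38.8 in COR cultures, against 6.62 and 5.74 in vehicle cultures. The COR signals were nearly equal, the differences were 2.55 and 2.74 and the fitted change 2.65 ± 0.10 (limma adjusted p = 2.8e-11). Pik3r1, a regulatory subunit of PI3 kinase (1.68), Depp1, a FoxO target linked to autophagy (1.43), and Ddit4, another inhibitor of mTORC1 (1.07), rose in both experiments. Depp1 had 48.6 and 25.5 in COR cultures and 17.2 and 9.90 in vehicle cultures, higher in the first experiment in both groups. Fbxo32, the muscle ubiquitin ligase atrogin, rose by 0.96, a call lost without the second COR array (0.89) or the second vehicle array (0.84), while Trim63, the ligase MuRF, had 16.3 and 27.6 in COR cultures and 16.4 and 19.8 in vehicle cultures (0.24, limma adjusted p = 0.39). The receptor Igf1r (0.19) and the brakes Sesn2 (-0.23) and Eif4ebp1 (0.28) did not pass. Foxo3 and Tsc22d3 are counted in this list and in that of transcription regulators.

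A minority of glucose and lipid genes rose. Of 22 tested, 5 rose (22.7%), 0 fell and 17 did not pass, with a median of 0.11. Pdk4, the kinase that shuts off pyruvate dehydrogenase, had 19.5 and 12.1 in COR cultures, against 6.95 and 4.15 in vehicle cultures (1.5 ± 0.15). Pfkfb3, which makes the activator of glycolytic phosphofructokinase, had 2.76 and 2.36 in COR cultures and 0.678 and 0.676 in vehicle cultures (1.81 ± 0.24, or 1.08 with a pseudocount of 1), while its other probe sets gave 0.99 and -0.80 and were not called. Pnpla2, the first lipase of triglyceride breakdown (1.22), Ppargc1a, a coactivator of mitochondrial genes (1.00), and Lpin1, a phosphatidate phosphatase (0.90), rose in both experiments. The abundant fatty acid genes Fabp3 (-0.09), Acsl1 (0.04) and Cpt1b (-0.10) did not pass. Of 82 respiratory chain and ATP synthase genes, assembly factors included, 2 rose (2.44%, near the 2.86% of all named genes), Ndufaf4 (0.40) and Ndufs7 (0.34). Ndufaf4 lost its call without the first COR array (0.49), the second COR array (0.31) or the second vehicle array (0.23). Ndufs7 lost its own without the second COR array (0.19) or the second vehicle array (0.27).

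In amino acid and purine turnover 5 of 19 genes rose (26.3%), 0 fell and 14 did not pass, with a median of 0.20. Glul, glutamine synthetase, had 27.5 and 16.3 in COR cultures, against 10.2 and 8.46 in vehicle cultures (1.18 ± 0.12), and its other probe sets gave 1.26 and 2.21. Prodh, proline dehydrogenase, had 3.70 and 3.92 in COR cultures and 1.40 and 1.48 in vehicle cultures, a difference of 1.36 in each experiment. Got1, an aspartate transaminase (0.45), Dbt, a part of the branched-chain keto acid dehydrogenase (0.61), and Gda, guanine deaminase (1.43), rose too, with less stable calls. Got1 lost its own without the first COR array (0.42), the second COR array (0.48) or the second vehicle array (0.30). Dbt lost it without the first COR array (0.42), the first vehicle array (0.66) or the second (0.56), and Gda without the first COR array (0.95) or the first vehicle array (1.11). The other probe set of Gda gave 1.17 and was not called.

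Prostanoid genes moved at several steps. Of 13 tested, 3 rose (23.1%), 1 fell (7.69%) and 9 did not pass, with a median of 0.40. Ptgs2, the inducible cyclooxygenase, had 3.62 and 2.37 in COR cultures, against 0.938 and 0.651 in vehicle cultures (1.82 ± 0.26, limma adjusted p = 0.00025, and 1.14 with a pseudocount of 1). Pla2g4a, the cytosolic phospholipase that releases arachidonic acid, had 6.21 and 3.26 in COR cultures and 2.70 and 1.52 in vehicle cultures (1.12), with its call lost without the first COR array (1.00). Hpgd, the dehydrogenase that inactivates prostaglandins, had 1.95 and 0.791 in COR cultures and 0.502 and 0.0756 in vehicle cultures. Its change of 2.20 ± 0.43 rests on low vehicle signals (0.85 with a pseudocount of 1), and its call was lost without the first COR array (2.22), the second COR array (2.18) or the second vehicle array (1.72). Ptgfr, the receptor for prostaglandin F, fell, with 4.97 and 2.65 in COR cultures and 11.3 and 6.80 in vehicle cultures (-1.26 ± 0.15), though its second probe set was not called (-0.60).

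Cytokine and acute-phase genes did not move as 1 group. Of 18 tested, 4 rose (22.2%), 1 fell (5.56%) and 13 did not pass, with a median of -0.11. Beside Ccl20 and Orm1, Lcn2, a secreted iron-binding protein, had 45.0 and 5.87 in COR cultures, against 11.1 and 4.12 in vehicle cultures. Its differences of 2.01 and 0.50 made it one of the 5 called genes with the widest gap between experiments, and its call was lost without the first COR array (0.65) or the first vehicle array (0.86). Nfkbia, the inhibitor of NF-kB (0.59), and Irf1, an interferon regulatory factor (-0.90), were called with all arrays, and neither was called without any 1 of the 4, with values of 0.55 to 0.63 for Nfkbia and -1.01 to -0.78 for Irf1. Ccl2, a monocyte chemokine, had 41.2 and 7.12 in COR cultures and 45.2 and 16.3 in vehicle cultures, and the differences of -0.13 and -1.19 did not pass together (-0.66, limma adjusted p = 0.064). Icam1 (-0.11), Il1r1 (0.13) and Csf1 (0.20) did not pass.

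Some immediate early genes were higher with COR at 3 h. Of 13 tested, 4 rose (30.8%), 1 fell (7.69%) and 8 did not pass, with a median of 0.31. Egr1, a zinc finger factor, had 52.9 and 22 in COR cultures, against 12.4 and 4.92 in vehicle cultures. Signals were higher in the first experiment in both groups, yet the differences were 2.09 and 2.15 (2.12 ± 0.10, limma adjusted p = 1.9e-10). Zfp36, which promotes decay of cytokine mRNAs (1.34), and Jun (1.05) rose. Fos (0.95) rose with a call lost without the first COR array (1.13), the second COR array (0.76) or the second vehicle array (0.74), and Ier3 (-0.49) fell with a call lost without any 1 of the 4 arrays (-0.51 to -0.47). Jund (0.09), Junb (0.56) and Ier2 (0.63) did not pass.

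Brakes of kinase and G protein signalling went both ways. Of 14 tested, 2 rose (14.3%), 3 fell (21.4%) and 9 did not pass, with a median of -0.10. Rasd1, a Ras-like protein known as dexamethasone-induced, had 2.84 and 2.77 in COR cultures, against 0.974 and 0.576 in vehicle cultures (1.81 ± 0.22, or 1.11 with a pseudocount of 1). Errfi1, an inhibitor of the epidermal growth factor receptor, had 5.55 and 2.47 in COR cultures and 2.53 and 1.09 in vehicle cultures, with near-equal differences of 1.11 and 1.13. Rgs2, which shortens G protein signalling, had 18 and 10.0 in COR cultures and 30.2 and 14.8 in vehicle cultures (-0.65), and its call was lost without the first COR array (-0.54). The phosphatase Dusp5 (-0.96) lost its call without the first COR array (-0.97), the second COR array (-0.96) or the second vehicle array (-0.68), and Rrad, a small GTPase that limits calcium current (-0.57), without the first COR array (-0.47) or the first vehicle array (-0.33). Dusp1, the phosphatase of MAP kinases often used as a glucocorticoid target, had 9.17 and 5.94 in COR cultures and 5.18 and 6.21 in vehicle cultures, which overlap (0.38, limma adjusted p = 0.33).

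Growth factors and morphogens had falls and no rise. Of 22 tested, 0 rose, 4 fell (18.2%, namely Sox4, Stc1, Sema6d and Fgf9) and 18 did not pass, and the median was -0.26, with -0.13 in the first experiment and -0.41 in the second. Fgf9, a fibroblast growth factor (-1.0), was not called without any 1 of the 4 arrays (-1.13 to -0.88). Ccn2, the connective tissue growth factor, had 78.9 and 76.4 in COR cultures and 74.5 and 56.1 in vehicle cultures (0.26, limma adjusted p = 0.19). In the vascular list F3 and Kdr rose and Pdgfa, a platelet-derived growth factor, fell (-0.75) among 15 tested, and Pdgfa was not called without any 1 of the 4 arrays (-0.84 to -0.66). Vegfa, the ligand of Kdr, had 17.2 and 22 in COR cultures and 20.9 and 24.1 in vehicle cultures (-0.20, limma adjusted p = 0.46).

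Among cardiac and hypertrophy genes 1 of 13 rose (7.69%), 2 fell (15.4%) and 10 did not pass, with a median of -0.03. Nppb, the B-type natriuretic peptide, had 90.2 and 39.8 in COR cultures, against 50.2 and 20.7 in vehicle cultures, higher with COR in each experiment by 0.85 and 0.95 (0.90 ± 0.13) although the second COR signal lies below the first vehicle signal. Nppa, the atrial peptide, had 199 and 139 in COR cultures and 191 and 137 in vehicle cultures (0.04). Irx4, an Iroquois factor of ventricular identity, had 18.1 and 20.6 in COR cultures and 35.6 and 31.1 in vehicle cultures (-0.78 ± 0.11). Mef2c (-0.46) was not called without any 1 of the 4 arrays (-0.52 to -0.39), and its other probe set gave -0.09. Myh7 (0.29), Acta1 (0.13) and Ankrd1 (0.03) did not pass.

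In ion transport 1 of 14 rose (7.14%) and 0 fell, with a median of -0.06. It was Sgk1, the kinase of sodium channels, with 16.4 and 5.17 in COR cultures and 6.55 and 2.86 in vehicle cultures, higher by 1.32 and 0.84 within experiments (1.08 ± 0.16). Atp2a2, the calcium pump (-0.06), Gja1, connexin of the gap junction (-0.12), and Pln, phospholamban (0.04), did not pass. In the cell cycle list the inhibitor Cdkn1a rose, with 13.7 and 26.8 in COR cultures and 7.32 and 12.4 in vehicle cultures (1.00 ± 0.10), and 15 of 18 did not pass. Its relatives Cdkn1c (0.50) and Cdkn1b (-0.46) were called in opposite directions. Cdkn1c lost its call without the first COR array (0.51), the second COR array (0.49) or the first vehicle array (0.33), and Cdkn1b, whose other probe set was not called (-0.19), without the first COR array (-0.42), the second COR array (-0.51) or the second vehicle array (-0.37).

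The remaining lists held few calls, to be set beside the 2.86% of all named genes that rose and the 1.14% that fell. Among 7 cardiovascular receptors Agtr1a, the angiotensin receptor, had 7.83 and 1.33 in COR cultures and 2.86 and 0.618 in vehicle cultures (1.23), a call lost without the first COR array (0.94) and absent in its other probe set (0.28). Adra1b, an alpha-adrenergic receptor (-0.57), lost its call without the first COR array (-0.49) or the second vehicle array (-0.57). Of 14 matrix genes Crispld2, a secreted protein that binds endotoxin (2.09 ± 0.17), and Adamts1, a protease (0.46), rose, the second not called without any 1 of the 4 arrays (0.34 to 0.59). Of 14 oxidative stress genes the metallothionein Mt2A rose (1.05), with 31.0 and 10.7 in COR cultures and 9.39 and 8.17 in vehicle cultures, and its call was lost without the first COR array (0.69) or the first vehicle array (0.52). Of 43 genes of ribosomal proteins and their paralogs Rpl39 fell alone (2.33%). Of 36 proteasome genes 0 passed in limma, with 6 at an unadjusted p below 0.05. In the lists with no fall, the falls at an unadjusted p below 0.05 numbered 1 each for the receptor, glucose and lipid, respiratory chain and oxidative stress lists and 0 for the insulin, amino acid, ion transport and matrix lists, and among growth factors, with no rise, 2 rises did so.

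**Figure D3:**
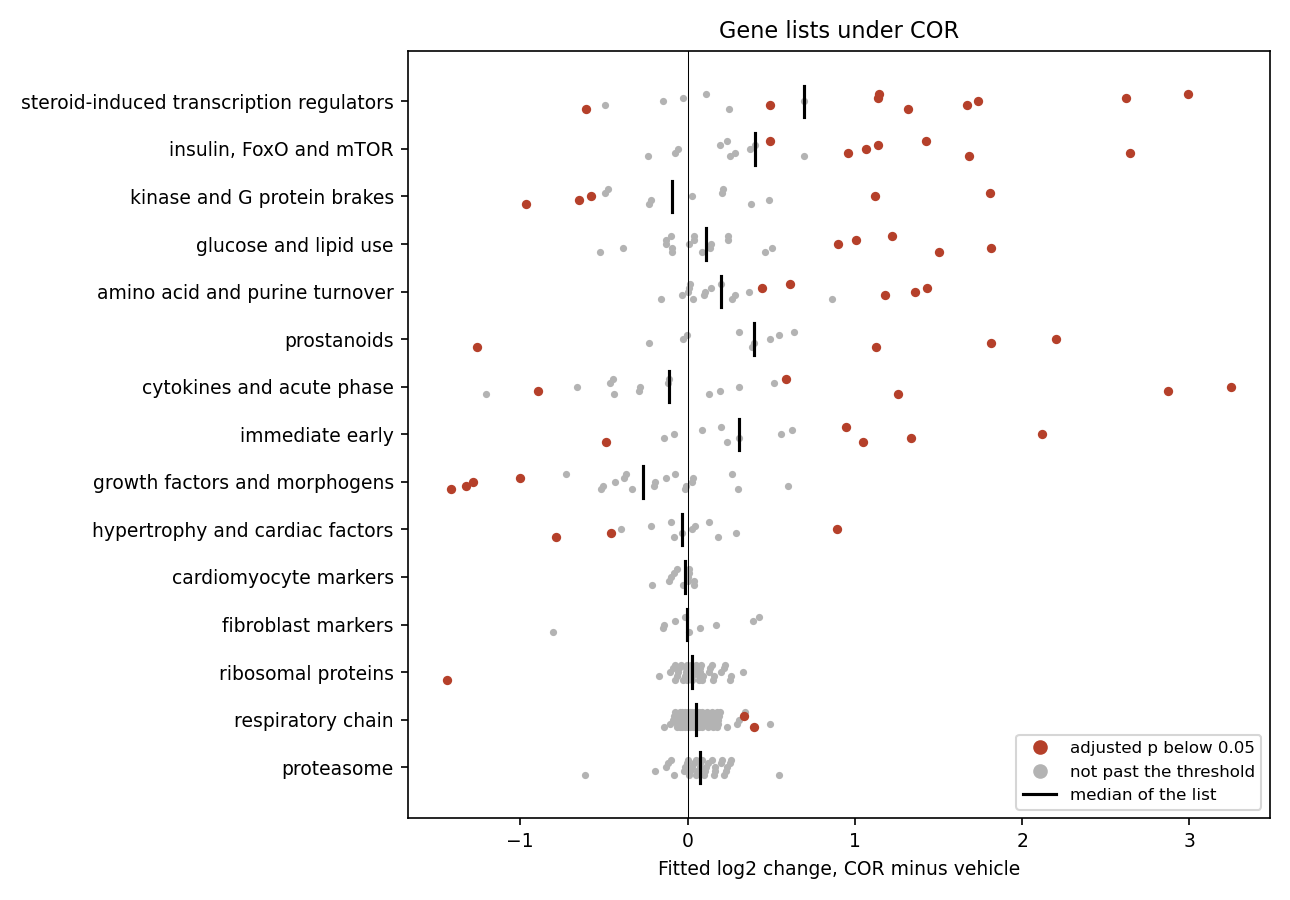
Fitted log2 change, COR minus vehicle (x axis), of every tested gene in 15 lists (rows): red points passed the threshold, grey points did not, and the black bar is the list's median. The median is 0.70 for steroid-induced transcription regulators and -0.26 for growth factors and morphogens, and it lies near 0 for cardiomyocyte markers, ribosomal proteins and the respiratory chain.

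The same genes were set beside the other ligands, whose differences use the same 2 vehicle arrays and are therefore not independent of those of COR. Fkbp5 differed from vehicle by 4.08 and 3.66 with COR, by 4.78 and 4.29 with CVZ and by 2.80 and 2.59 with ALD. Sesn1 differed by 2.55 and 2.74 with COR, by 2.77 and 3.05 with CVZ and by 1.84 and 2.13 with ALD. Sox4 differed by -1.30 and -1.52 with COR, by -1.86 and -1.96 with CVZ and by -0.93 and -0.73 with ALD. In these 3 genes COR lay between the other ligands in both experiments.

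The test of COR against CVZ, in which the vehicle arrays cancel, called 219 probe sets (1.18%), 61 higher (0.328%) and 158 lower (0.848%) with COR. Of the 24 largest rises under COR, 9 were lower with COR than with CVZ and 15 did not pass; these genes were chosen on the same COR arrays, so the count is a description. Orm1 had 2.85 and 2.35 in COR cultures, against 12.7 and 12.3 in CVZ cultures, a difference of -2.24 ± 0.29 (limma adjusted p = 0.00081). Ptgs2 had 3.62 and 2.37 in COR cultures and 13.0 and 13.5 in CVZ cultures (-2.15 ± 0.26), and Slc7a6, an amino acid transporter, had 13.5 and 6.83 in COR cultures and 35.7 and 19.4 in CVZ cultures (-1.45). Rasd1 (-1.59), Crispld2 (-1.27) and Otulinl (-2.44) were lower with COR as well. Both COR arrays were below both CVZ arrays in each of the genes given here by signal.

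The genes higher with COR than with CVZ included the chemokines Ccl7, Ccl2 and Cxcl1. The chemokine Ccl20 went the other way without a call, at -0.54 (limma adjusted p = 0.26). Ccl7, a monocyte chemokine, had 5.13 and 0.857 in COR cultures, against 0.621 and 0.125 in CVZ cultures (2.59, interval 1.98 to 3.20). Ccl2 had 41.2 and 7.12 in COR cultures and 6.64 and 2.36 in CVZ cultures (2.09, interval 1.70 to 2.49, limma adjusted p = 5.7e-05). Cxcl1, a neutrophil chemokine, had 16.4 and 1.82 in COR cultures and 2.22 and 1.04 in CVZ cultures (1.80). Fgf18 (1.57) and Rtn4rl1 (1.41) were also higher with COR. For Ccl7, Ccl2 and Cxcl1 the COR signal of the second experiment was several-fold lower than that of the first. For Cxcl1 it was also below the first CVZ signal. Per1 showed no called difference, with COR minus CVZ at -0.05 and an interval of -0.60 to 0.49.

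COR against ALD gave 70 called probe sets (0.376%), 64 higher (0.344%) and 6 lower (0.0322%) with COR. Of the 24 largest rises under COR, 16 were higher with COR than with ALD and 8 did not pass, again as a description, since choosing genes for high signals on the same COR arrays favours values higher with COR. Pfkfb3 had 2.76 and 2.36 in COR cultures, against 0.533 and 0.653 in ALD cultures (1.99 ± 0.24, limma adjusted p = 0.00079), and the ALD signals were no higher than the vehicle signals of 0.678 and 0.676. Fkbp5 had 26.6 and 28.2 in COR cultures and 10.9 and 13.4 in ALD cultures (1.17 ± 0.13). Orm1 (1.76), Ptgs2 (1.46), Crispld2 (1.23), Lrch1 (1.23) and Tent5b (0.94) were higher with COR, and Rcor2 (-1.96), Sox4 (-0.58) and Lbh (-0.45) were lower. Per1 did not pass (0.61, interval 0.06 to 1.16).

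**Figure D4:**
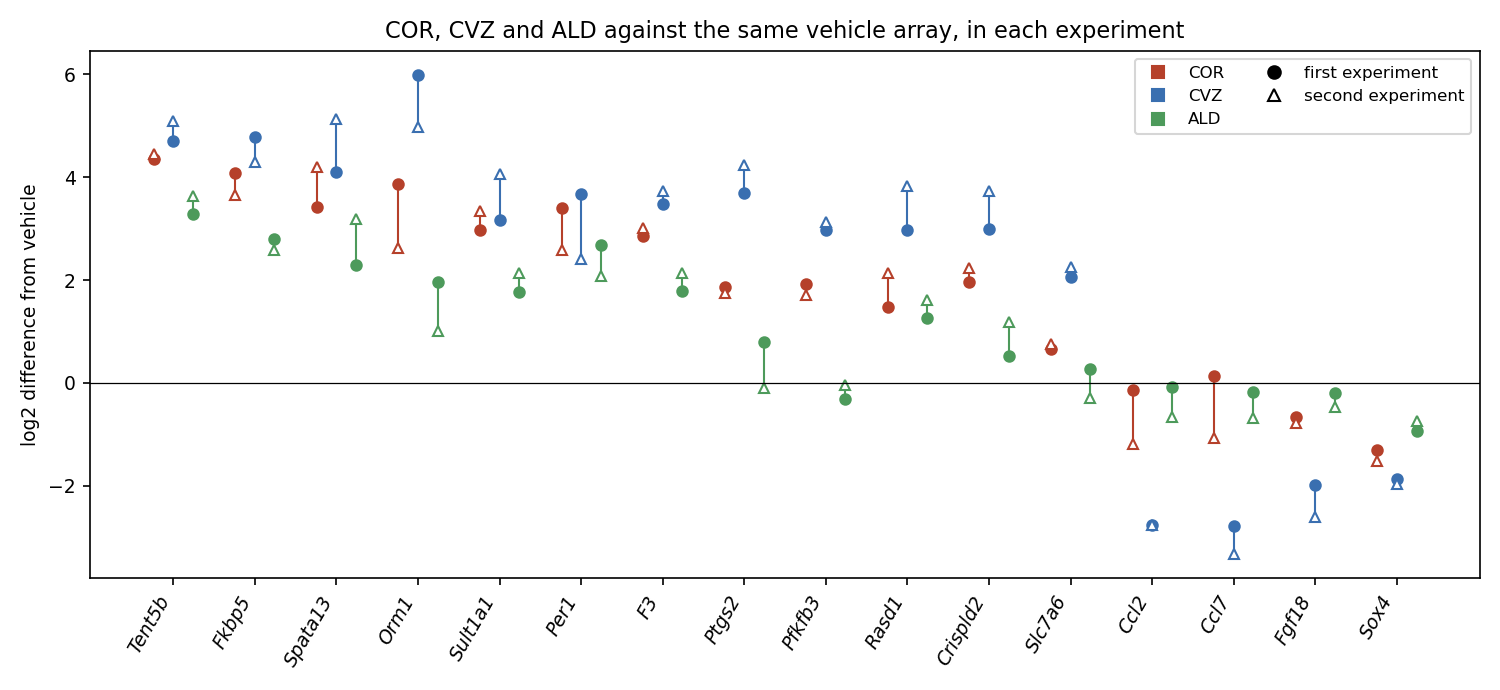
Log2 difference from the vehicle array of the same experiment (y axis) for 16 genes with COR (red), CVZ (blue) and ALD (green), circles for the first experiment and triangles for the second, joined by a line. The ligands share the vehicle arrays. Orm1 reads 3.86 and 2.63 with COR and 5.99 and 4.98 with CVZ, and Ccl2 reads -0.13 and -1.19 with COR and -2.76 and -2.75 with CVZ.

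The doses are unknown, so these differences compare the cultures and not the ligands at matched doses. Without the block or without the trend 0 probe sets passed in either comparison (428 and 1580 for CVZ and 253 and 1098 for ALD at an unadjusted p below 0.05), and without 1 array the counts were 65 to 134 for CVZ and 13 to 64 for ALD, lowest without the second COR array for CVZ and without the first for ALD.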

How the data were processed

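The deposited intensity values were MAS5 signals per the submitters' processing notes; tested on the file, every array had a median of 1, so the authors' values had been divided by the array median. Expression was measured on 12 Affymetrix arrays of 31099 probe sets, grouped by the experiment and ligand in the labels. The 8 arrays without RU486 (COR, CVZ, ALD and vehicle, 2 each) entered the fit, since the 4 COR and vehicle arrays alone leave too few residual degrees of freedom; all 12 were used in 1 alternative. The pseudocount of 0.0682 was the 10th percentile of the values of these 8 arrays. The filter kept probe sets whose log2 values averaged over the 40th percentile (signal plus pseudocount of 0.628), 18625 in all. Arrays have no depth; how many there are limits the precision.

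limma 3.58.1 in R 4.3.3 was run with group and experiment as terms and a mean-variance trend (residual degrees of freedom 3, 13.7 from the prior). The experiments pair the arrays: between groups, the first arrays' deviations from their group means had correlations of 0.514 to 0.568. Adjusted p-values are Benjamini-Hochberg over all probe sets tested, and intervals are 95%. The procedure was tested on simulated data. Probe sets were named from the platform annotation: 20832 had 1 symbol, 436 several and 9831 none.

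Genes were named by 1 probe set, that with the highest mean: up to 24 rises and 14 falls by size with the same sign in both experiments, the 5 called genes with the widest gap, up to 5 past 2-fold in opposite directions, called list members and up to 4 others per list, up to 6 in each direction against CVZ and ALD, and both receptors. Not all are printed. The members, lists and comparisons were chosen with earlier results of these data known. Promoter windows came from RefSeq's GRCr8. Alternatives were the block, the arrays fitted, pseudocount, filter, scaling, trend, the agreement limits and leaving out each array.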

Additional observations from a re-analysis of the deposited data

Results flagged for a closer look

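COR minus vehicle was 2-fold or more in both experiments but in opposite directions for 22 probe sets. The 5 named genes of highest signal among them are given as the first minus the second experiment; the difference was not tested, and none of the 5 was called in the limma fit. Ptprn, a phosphatase-like protein of secretory granules, differed by 2.75, with 1.15 in the first experiment and -1.59 in the second. Cp, the copper protein ceruloplasmin, differed by 3.18, with 1.66 and -1.53. Nkd1, an inhibitor of Wnt signalling, differed by 3.27, with 1.03 and -2.24. Nrxn2, a neurexin, differed by -3.67, with -1.59 and 2.07. Lce3b, a gene of the skin barrier, differed by -3.00, with -1.23 and 1.77. All 5 had low signals, between 0.157 and 2.55 in COR cultures and between 0.261 and 2.23 in vehicle cultures.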

How the results depend on the processing

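For COR against vehicle, 650 calls became 48 with no replicate block (all among the 650, all rises), 122 without the trend and 1031 with only the 4 COR and vehicle arrays; the other settings gave 523 to 733, and leaving out 1 array gave 395 to 554. For COR against CVZ, 219 calls became 0 with no replicate block, 0 without the trend and 127 without the filter, and 65 to 134 with 1 array left out. For COR against ALD, 70 became 0, 0 and 41 under the same settings, and 13 to 64. The 143 probe sets that agreed in sign and size became 82 with a pseudocount of 1, 553 without the filter and 583 at 1.5-fold, with no value when 1 array is left out, since a pair is then lost. Of 94 named genes called for COR, 76 lost the call without the block, 55 without the trend and 41 without at least 1 array, with the cause not tested; 53 kept it under every alternative but those of block and trend, and 18 under every alternative. A gene was counted as keeping its call over the settings in which it had a value, and with the filter at the 60th percentile 84 of the 94 had one. The block, which pairs COR and vehicle arrays of 1 experiment, is part of the fit reported. Nr3c2, not called in any setting, was -0.04 with all arrays and -0.51 to 0.42 with 1 left out, above 0 without COR replicate 1 (0.19) or vehicle replicate 1 (0.42). The median change over all probe sets was 0.0085 as deposited, -0.017 after quantile normalization and -0.032 after trimmed-mean scaling. No detection calls were used, so signals well below the array median may lie within background.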

Other observations

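These gene families were picked by gene symbol after the results had been seen, and they are described without a test of the family. Over all named genes 2.86% rose and 1.14% fell. Of 23 tested genes picked around the sarcomere's Z-disc and thin filament, 8 rose and 1 fell, with a median of 0.33. The pick does not cover the thin filament: the troponin genes Tnnt2 (-0.11) and Tnni3 (-0.06) and the actin gene Acta1 (0.13) lie outside it and did not pass. Tcap, the titin cap, had 32.8 and 28.7 in COR cultures, against 13.0 and 10.8 in vehicle cultures (1.36 ± 0.10). Lrrc10, a cardiac leucine-rich repeat protein, had 151 and 152 in COR cultures and 72.4 and 73.9 in vehicle cultures (1.05 ± 0.07). Trim54 (0.68), Mypn (0.57), Lmod2 (0.56), Myoz2 (0.52), Myzap (0.50) and Pdlim3 (0.42) rose and Synpo2l (-0.50) fell. Of 6 perilipins and diacylglycerol acyltransferases tested, 2 rose, Dgat2, which makes triglycerides (1.23), and Plin4, a lipid droplet coat protein (1.25), while Plin2, Plin3, Plin5 and Dgat1 did not pass, and the median was 0.19. Of 11 members of the BCL2 family 3 rose, the survival genes Bcl2l1 (1.35) and Mcl1 (0.52) and the death gene Bcl2l11 (0.81).

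Some Eph and Frizzled receptors were among the falls. Of 6 Eph receptors tested, 0 rose and 3 fell, Epha3 (-0.78), Epha4 (-0.78) and Ephb3 (-1.14). Of 6 Frizzled receptors 0 rose and 2 fell, Fzd1 (-0.67) and Fzd8 (-1.05), against falls in 1.14% of all named genes. Fzd1 had 31.4 and 35.7 in COR cultures, against 55.3 and 51.7 in vehicle cultures. Within some families members went opposite ways: Irf9 rose (1.79) and Irf1 fell (-0.90), Tent5b rose (4.40) and Tent5a fell (-0.85), Cdc42ep2 rose (2.34) and Cdc42ep3 fell (-0.66), and Rasgrp1 rose (2.58) and Rasgrp3 fell (-0.72). Of 12 Krüppel-like factors 4 rose, Klf15, Klf9, Klf13 (0.98) and Klf2 (0.81), and of 160 solute carriers 7 rose and 2 fell, against 2.86% and 1.14% of all named genes.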
